A study of Homo sapiens with 4 samples.

Results

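The genes described here are 35 markers of the primitive streak, mesoderm and endoderm, chosen as a named list from the 60483 gene identifiers counted in each library. The list held 6 genes of the primitive streak, 14 of mesoderm, 14 of endoderm and FOXH1, a cofactor of Nodal signalling that is described apart. RNA was sequenced from H9 cells, also called WA09, an established line of human embryonic stem cells (hESC), in 2 control libraries and 2 libraries from cells with SLC35F2 knocked out (KO). The protein made from SLC35F2 is a membrane transporter of the solute carrier family. The groups differ by that knockout as labelled, no treatment or time is given, and the labels do not say how the knockout was made or whether a group's libraries came from separate cultures or clones. The p-values therefore rest on how far these samples lie apart within a group, a spread that can be technical.

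In the embryo, cells of the epiblast pass through the primitive streak to become mesoderm or definitive endoderm. Nodal, BMP and WNT signals start this step, and the T-box factors TBXT and EOMES and the homeobox factor MIXL1 are among the first genes switched on. Stem cell cultures kept undifferentiated hold little RNA of these genes, and cells that begin to differentiate are known to raise them.

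The libraries held 27824693 to 37978705 reads assigned to genes. SLC35F2 had 41.1 and 27.1 CPM (counts per 1000000 of the scaled library total) in the controls, against 12.1 and 9.65 CPM in KO 1 and KO 2. Its log2 fold change was -1.65 ± 0.35 (SE), with an edgeR adjusted p of 0.58. It was called with DESeq2 (adjusted p = 0.00843) and with the replicate number as a block (edgeR adjusted p = 0.00736). It was not called with limma-voom (adjusted p = 0.837), with the legacy edgeR fit (adjusted p = 0.787) or with other scalings and filters. With 1 library left out its log2 fold change ranged from -1.92 (without control 2) to -1.31 (without control 1). All 10 pluripotency markers examined were detected, with a summed level of 7369 and 7541 CPM in the controls, beside 8072 and 5704 CPM in the KO libraries, so the markers of the labelled cell type were present in every library. Of 10 markers each, 8 fibroblast or stromal, 7 trophoblast and amnion and 9 neuroectoderm genes were detected too. In a bulk sample, fewer cells of a type and less RNA per cell cannot be told apart.

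A promoter sequence was found in RefSeq (GRCh38.p14) for 21 of the 35 markers, and 5 are shown because their genes illustrate the 2 main patterns described further on. TBXT, MIXL1 and HHEX had lower levels in KO 1 and KO 2 than in either control, while TBX6 and MESP2 had their higher levels in control 2 and KO 2. Each line gives the bases from 250 to 51 before the RefSeq start, 5′ to 3′ on the gene's strand, and none of these bases lies in a GENCODE 29 exon. The windows are chr6:166168706-166168905 (minus strand) for TBXT, chr1:226223414-226223613 (plus) for MIXL1, chr10:92689705-92689904 (plus) for HHEX, chr16:30091975-30092174 (minus) for TBX6 and chr15:89776082-89776281 (plus) for MESP2. Capitals mark matches to the FOXH1-type motif TGTNNATT, the TCF/LEF motif CTTTGAT or the T-box motif GGTGTGA on either strand.
TBXT: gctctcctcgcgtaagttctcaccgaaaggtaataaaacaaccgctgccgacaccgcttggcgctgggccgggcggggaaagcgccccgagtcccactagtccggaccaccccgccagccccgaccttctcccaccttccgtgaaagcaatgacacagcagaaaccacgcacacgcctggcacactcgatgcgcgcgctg
MIXL1: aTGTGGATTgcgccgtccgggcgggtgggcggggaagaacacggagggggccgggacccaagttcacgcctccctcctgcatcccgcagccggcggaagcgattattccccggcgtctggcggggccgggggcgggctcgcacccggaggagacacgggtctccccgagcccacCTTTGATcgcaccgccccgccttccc
HHEX: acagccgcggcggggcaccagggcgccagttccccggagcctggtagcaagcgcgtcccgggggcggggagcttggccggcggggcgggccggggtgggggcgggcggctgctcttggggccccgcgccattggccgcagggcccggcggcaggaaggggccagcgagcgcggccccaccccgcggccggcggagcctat
TBX6: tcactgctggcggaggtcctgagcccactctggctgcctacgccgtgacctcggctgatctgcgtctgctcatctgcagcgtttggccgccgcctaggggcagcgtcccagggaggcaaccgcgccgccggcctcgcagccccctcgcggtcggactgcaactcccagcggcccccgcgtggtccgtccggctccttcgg
MESP2: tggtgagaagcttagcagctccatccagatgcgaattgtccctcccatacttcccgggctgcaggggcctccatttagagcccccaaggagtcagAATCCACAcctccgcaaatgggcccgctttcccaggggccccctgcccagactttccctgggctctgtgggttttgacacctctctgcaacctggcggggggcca

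MIXL1 held a FOXH1-type match 249 to 242 bases and a TCF/LEF match 76 to 70 bases before its start. MESP2 held a FOXH1-type match, read on the opposite strand, 155 to 148 bases before its start. None of the 3 motifs was found in the windows of TBXT, HHEX and TBX6. Over all 35116 RefSeq promoters, the same window held TGTNNATT in 8.4%, CTTTGAT in 1.89% and GGTGTGA in 2.27%. Among the 21 markers TGTNNATT was present in 5, namely AFP, CXCR4, MESP2, MIXL1 and PRDM1, CTTTGAT in 1 and GGTGTGA in 0. These counts are per gene, with a match in any promoter of that gene. The shares over all promoters are per promoter, so the counts and shares are in unlike units. These matches describe the letters of the windows and show no binding.

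Of the 35 markers, 19 were detected, which means at least 10 reads in 2 or more libraries. By this rule 75.6% of the protein-coding genes and 31.6% of all identifiers were detected. Detection was 9 of 20 (45%) for the primitive streak and mesoderm genes and 9 of 14 (64.3%) for the endoderm genes, and FOXH1 was detected as well. The same 19 genes had enough reads to be tested. The detected streak genes were TBXT, MIXL1 and EOMES, and the detected mesoderm genes were MESP2, TBX6, CDX2, APLNR, SNAI2 and SNAI1. With a rule of 1 CPM in 2 libraries the layers changed order, with 7 detected genes of streak and mesoderm and 4 of endoderm.

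**Figure D1:**
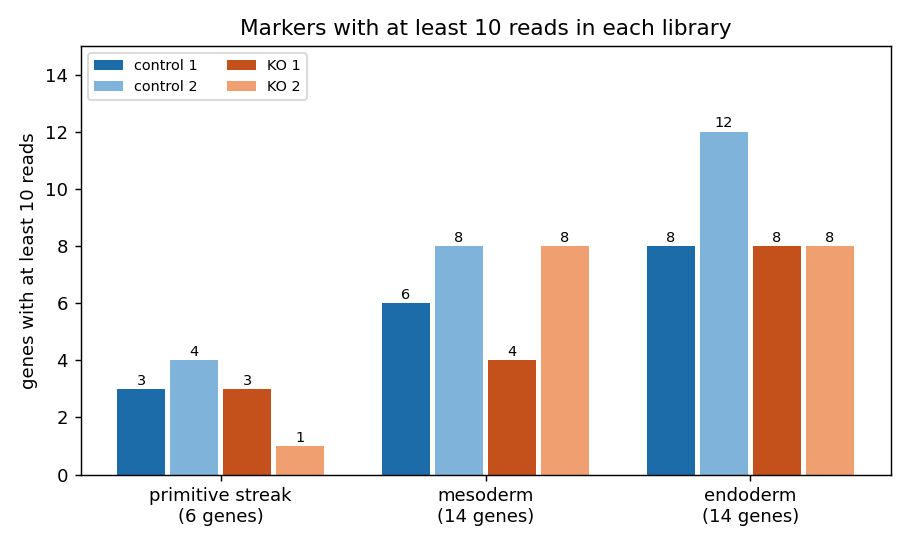
Number of primitive streak, mesoderm and endoderm markers with at least 10 reads (vertical axis) in each of the 4 libraries (bars). Control 2 had the most endoderm markers (12) and KO 2 the fewest streak markers (1).

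The undetected 16 genes were mostly seen in a single library. Control 2 alone held 10 reads or more for 6 of them, namely EVX1, FOXF1, HAND2, FOXA1, GATA4 and GATA6, with 11 to 37 reads. KO 2 alone did so for FOXC1, FOXC2 and MEOX1, with 13 to 27 reads. The other 7, GSC, LHX1, MESP1, MSGN1, CDX1, SOX17 and HNF4A, stayed under 10 reads in every library, with 6 reads as the highest value.

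Reads of several defining endoderm factors were few. SOX17, an HMG-box factor required for definitive endoderm, had 2 and 3 reads in control and 1 and 0 in KO. The zinc finger factor GATA6 had 3 and 37 reads in control and 5 and 0 in KO, so its reads came mainly from control 2. GATA4 had 2, 26, 4 and 4 reads in control 1, control 2, KO 1 and KO 2. HNF4A, a nuclear receptor of liver and gut, had 1 to 3 reads in each library.

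Several undetected mesoderm genes had most of their reads in 1 library. FOXF1, a forkhead factor of lateral and splanchnic mesoderm, had 1 and 11 reads in the controls and no read in KO 1 or KO 2. Over the pooled controls this is at least 3.37-fold lower when the KO group is set to a floor of 3 reads. That bound rests on control 2. Control 1, at 0.0265 CPM, lay below the level of 3 reads in KO 1 (0.109 CPM) and KO 2 (0.0877 CPM). FOXC2, a forkhead factor of paraxial mesoderm, had 1, 1, 1 and 16 reads in the same order. The homeobox gene MEOX1 of early somites had 1, 1, 0 and 13 reads, so it and FOXC2 stood out in KO 2 only. MSGN1, a bHLH factor of presomitic mesoderm, had 0 reads in all 4 libraries, which allows up to 0.0222 CPM over the 4. Floors and reads of this size cover counting error only.

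Levels were compared between genes per length. Mean TPM (reads per exon length, scaled to sum to 1000000 in each library) was 75.4 for FOXH1, 41.7 for FOXA3, 21.7 for SNAI1 and 7.17 for RHOBTB3. The pluripotency factor SOX2 had a mean of 467 TPM on this scale. Every other marker had a mean of 3.39 TPM (TBX6) or less. FOXA3 ranged from 38.2 to 43.3 TPM and FOXH1 from 61.7 to 104 TPM over the libraries, so their ranges did not meet. SNAI1, at 14.4 to 34.8 TPM, lay below FOXA3 in every library. The next in order, TBX6 (1.52 to 4.72 TPM) and AFP (1.04 to 3.77 TPM), overlapped widely.

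**Figure D2:**
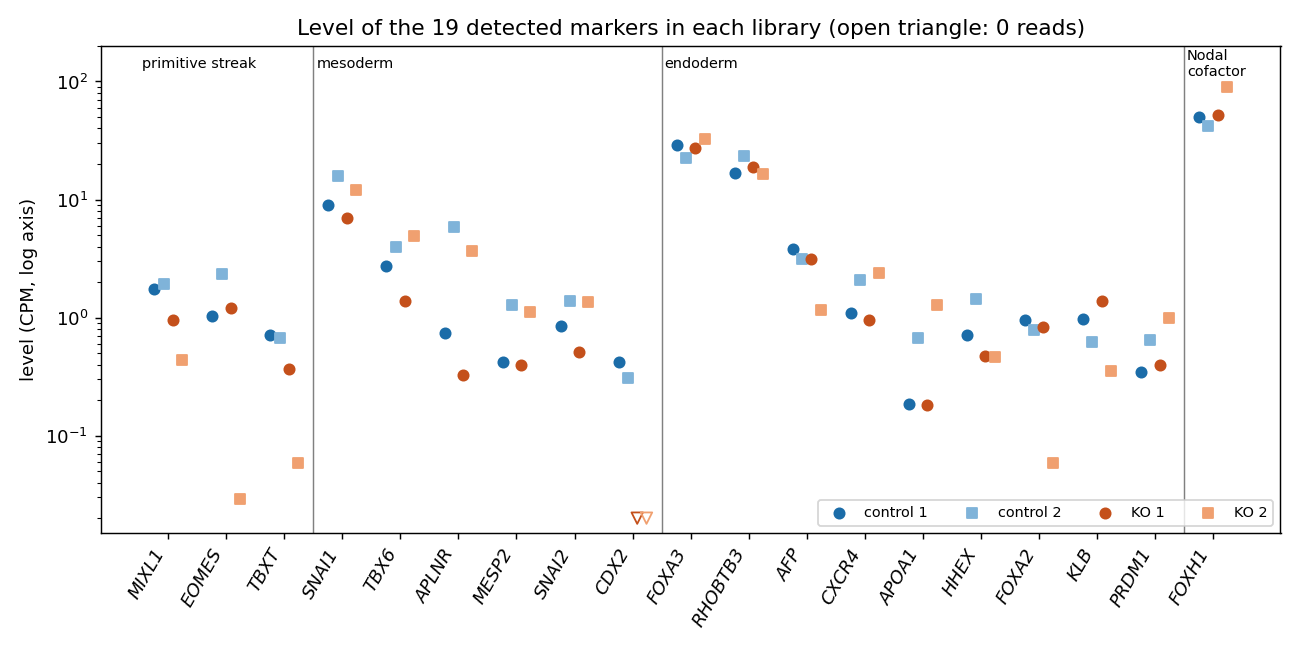
Level in CPM (vertical log axis) of the 19 detected markers (horizontal axis) in each library, with control in blue and KO in orange. MIXL1 and TBXT lie lower in both KO libraries, while SNAI1, TBX6, APLNR, MESP2 and SNAI2 are higher in control 2 and KO 2 (squares) than in control 1 and KO 1 (circles).

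The comparison of KO with control asks whether loss of SLC35F2 changed the RNA of these lineage genes. None of the 19 tested markers passed edgeR's quasi-likelihood test over all 19027 genes, where 5 genes (0.0263%) passed, 0.021% with lower and 0.00526% with higher values in KO, and the adjusted p of every marker was 0.997. At an unadjusted p under 0.05, edgeR placed 2 of the 19, MIXL1 and CDX2, both with lower values in KO, against 3% of all genes with lower and 1.06% with higher values. CDX2 passed the filter on low counts only through the controls, the group where it is high, so its lower value was fixed by that filter and is no support. DESeq2 and limma-voom called 0 markers too, though DESeq2 gave no adjusted p for TBXT and CDX2. At an unadjusted p under 0.05 DESeq2 placed 1 (CDX2) and limma-voom 3 (TBXT, MIXL1 and CDX2). Of the 19, 4 had both KO levels below both control levels (TBXT, MIXL1, CDX2 and HHEX) and 1 had both above (FOXH1), against 16.3% and 15.8% of all genes tested. The other 14 overlapped between the groups.

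The 3 detected streak genes had the lowest levels in KO 2. TBXT (ENSG00000164458.8, chromosome 6, 166157656 to 166168700, minus strand of GRCh38), known as Brachyury and the classic marker of the streak, stood at 0.716 and 0.676 CPM in the controls, against 0.364 and 0.0585 CPM in KO 1 and KO 2. These levels came from 27, 24, 10 and 2 reads. Both KO libraries lay below both controls. The log2 fold change was -1.81 ± 0.81 (SE), with a 95% confidence interval from -3.65 to 0.04 (edgeR adjusted p = 0.997).

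MIXL1 (ENSG00000185155.10, chromosome 1, 226223618 to 226227054, plus strand), a paired-type homeobox factor of mesendoderm, stood at 1.75 and 1.91 CPM in the controls, against 0.946 and 0.439 CPM in KO 1 and KO 2. The means were 1.83 ± 0.117 and 0.692 ± 0.358 CPM (SD, n = 2 per group), and the groups did not overlap. Its log2 fold change came to -1.44 ± 0.62 (interval -2.86 to -0.02), and its p in edgeR was 0.0469 unadjusted and 0.997 adjusted.

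EOMES (ENSG00000163508.11, chromosome 3, 27715949 to 27722711, minus strand), a T-box factor needed for definitive endoderm and early mesoderm, had 39, 84, 33 and 1 reads in control 1, control 2, KO 1 and KO 2. In CPM these were 1.03, 2.36, 1.2 and 0.0292, so KO 1 lay between the controls and only KO 2 was low. The log2 fold change of -1.57 ± 0.95 was not called (edgeR adjusted p = 0.997). Without KO 1 it was -5.68 and called (edgeR adjusted p = 0.00264), and without KO 2 it was -0.49 (edgeR adjusted p = 1). Such a fit takes the single KO library left to vary like the controls. TBXT and MIXL1 moved in the same way, from -0.93 and -0.95 without KO 2 to -3.48 and -2.04 without KO 1, with no call. Of the undetected streak genes, EVX1 had 2, 19, 2 and 0 reads, LHX1 had 1, 6, 0 and 0, and GSC had 3, 1, 2 and 2.

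CDX2 was the detected marker with reads in both controls and none in either KO library. CDX2 (ENSG00000165556.9, chromosome 13, 27962137 to 27971139, minus strand) is a caudal-type homeobox factor of posterior mesoderm, gut and trophectoderm. Control 1 held 16 reads and control 2 held 11, while KO 1 and KO 2 held 0, at least 7.58-fold lower with the KO group set to a floor of 3 reads. It passed the filter on low counts through the controls alone, so its fitted difference and p are not used. CDX1, its paralog, had 3, 2, 3 and 0 reads and was not detected.

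The other 5 detected mesoderm genes overlapped between the groups. TBX6, a T-box factor of paraxial mesoderm, stood at 2.76 and 4 CPM in the controls, against 1.38 and 4.88 CPM in KO 1 and KO 2 (log2 fold change -0.07, interval -1.49 to 1.35). MESP2, a bHLH factor of somite segmentation, stood at 0.424 and 1.27 CPM in the controls, against 0.4 and 1.11 CPM in KO 1 and KO 2 (log2 fold change -0.10, interval -1.80 to 1.60). In both, control 2 and KO 2 were high and control 1 and KO 1 were low.

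APLNR, which encodes the apelin receptor of early mesoderm, had the widest spread of these 5. It had 28, 209, 9 and 125 reads, or 0.742, 5.88, 0.327 and 3.66 CPM in control 1, control 2, KO 1 and KO 2. Its log2 fold change of -0.66 ± 1.08 was not called (edgeR adjusted p = 0.997). Without KO 2 it was -3.31 and called (edgeR adjusted p = 0.03), without KO 1 it was 0.17, and without control 2 it was 1.46.

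The Snail factors repress E-cadherin during epithelial to mesenchymal transition. SNAI1 was the most abundant of the mesoderm markers per length, at 8.98 and 15.8 CPM in the controls, against 7.02 and 12 CPM in KO 1 and KO 2. SNAI2 stood at 0.848 and 1.38 CPM in the controls, against 0.509 and 1.35 CPM in KO 1 and KO 2. Their log2 fold changes were -0.38 (interval -1.39 to 0.64) and -0.21 (interval -1.70 to 1.28), and the groups overlapped in both.

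**Figure D3:**
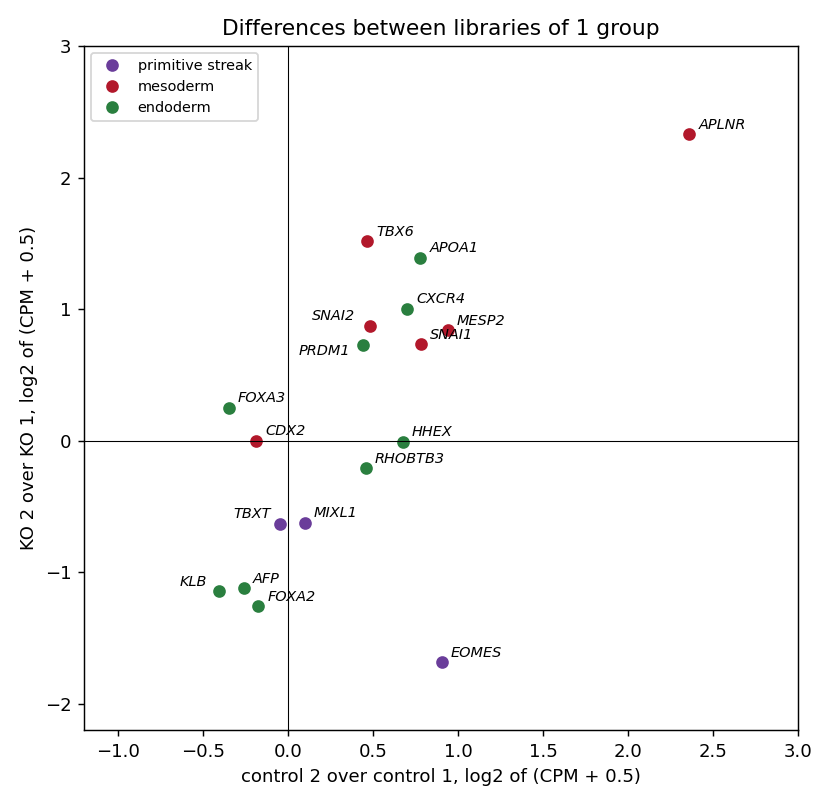
Difference between the 2 control libraries (horizontal axis) and between the 2 KO libraries (vertical axis) for 18 detected markers, each as the log2 ratio of CPM + 0.5. TBX6, APLNR, MESP2, SNAI1 and SNAI2 lie above 0 on both axes, while TBXT, MIXL1 and EOMES lie below 0 on the vertical axis.

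Within the KO group, all 3 streak genes were lower in KO 2 than in KO 1 and had there their lowest level of the 4 libraries (32.3% of all genes), and 5 of 6 tested mesoderm genes were higher, CDX2 being at 0 in both. Of all genes tested, 50% were higher in KO 2 than in KO 1. Between the controls, 7 of the 9 streak and mesoderm genes and 5 of the 9 endoderm genes were higher in control 2, against 51% of all genes. Control 2 was the highest of the 4 libraries for 6 of the 9 streak and mesoderm genes (25.8% of all genes). With CDX2 left out, since its KO libraries tied at 0 reads, KO 1 was the lowest for 5 of 8 (24.8% of all genes). Marker levels of other cell types differed between these libraries too, and their sums rested on few genes. The 10 trophoblast and amnion markers summed to 23.1 and 46.9 CPM in the controls, beside 20.9 and 27.9 CPM in the KO libraries, with CGA at 0 in all 4 libraries, and 5 of 6 tested genes were higher in control 2 than in control 1 and 5 in KO 2 than in KO 1. The 10 fibroblast or stromal markers summed to 675 and 1065 CPM in the controls, beside 677 and 1495 CPM in the KO libraries, with DCN at 0 reads in all but KO 1, and 6 of 8 tested genes were higher in control 2 and 6 in KO 2. Of these sums COL1A1 gave 128, 300, 46.8 and 552 CPM in control 1, control 2, KO 1 and KO 2, while THY1 (429 and 337 CPM) and POSTN (1.64 and 0.468 CPM) were lower in KO 2 than in KO 1. The 10 neuroectoderm markers summed to 481 and 795 CPM in the controls, beside 548 and 956 CPM in the KO libraries, of which NES alone gave 462, 777, 526 and 919 CPM. By gene, 4 of 9 tested neuroectoderm markers were higher in control 2 and 5 of 9 in KO 2, near the 51% and 50% of all genes. Their part in the mesoderm levels was not tested.

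The endoderm markers with the most reads had overlapping levels in the groups. FOXA3, a forkhead factor of liver and gut, stood at 28.9 and 22.6 CPM in the controls, against 27.5 and 32.8 CPM in KO 1 and KO 2 (log2 fold change 0.23 ± 0.31, interval -0.47 to 0.93, and 0.064 to 0.43 with a library left out). RHOBTB3, a BTB domain protein, stood at 16.9 and 23.4 CPM in the controls, against 18.9 and 16.3 CPM in KO 1 and KO 2 (log2 fold change -0.19 ± 0.34, interval -0.96 to 0.57). The other 7 detected endoderm genes had fewer reads than these and wider intervals.

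FOXA2, a pioneer factor of endoderm and floor plate, was low in KO 2 alone. It had 36 and 28 reads in control, 23 in KO 1 and 2 in KO 2, or 0.954, 0.788, 0.836 and 0.0585 CPM (log2 fold change -1.07 ± 0.85, interval -3.00 to 0.86, with -3.81 without KO 1 and -0.059 without KO 2). AFP, the fetal albumin-like protein of yolk sac and liver, stood at 3.84 and 3.12 CPM in the controls, against 3.13 and 1.17 CPM in KO 1 and KO 2 (log2 fold change -0.73, interval -2.06 to 0.60, with -1.56 without KO 1 and -0.15 without KO 2). KLB, the coreceptor beta-Klotho for endocrine FGFs, stood at 0.981 and 0.619 CPM in the controls, against 1.38 and 0.351 CPM in KO 1 and KO 2. These 3 genes shared their lowest level in KO 2 with the streak genes. With RHOBTB3 and HHEX, 5 of the 9 tested endoderm genes had their lowest level there, against 32.3% of all genes. So did 8 of the 10 pluripotency markers, so this low level was not particular to the streak and endoderm markers.

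HHEX, a homeobox factor of anterior endoderm, was the detected endoderm gene whose groups did not overlap. It stood at 0.716 and 1.44 CPM in the controls, against 0.473 and 0.468 CPM in KO 1 and KO 2, from 27, 51, 13 and 16 reads. Its log2 fold change was -1.18 ± 0.67 (interval -2.70 to 0.34, edgeR adjusted p = 0.997), and it was -0.60 without control 2.

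CXCR4, APOA1 and PRDM1 were higher in control 2 and KO 2, as TBX6, MESP2, APLNR, SNAI1 and SNAI2 were. CXCR4, a chemokine receptor used as a surface marker of definitive endoderm, stood at 1.09 and 2.08 CPM in the controls, against 0.946 and 2.4 CPM in KO 1 and KO 2. APOA1, the main apolipoprotein of high-density lipoprotein, stood at 0.186 and 0.676 CPM in the controls, against 0.182 and 1.29 CPM in KO 1 and KO 2. PRDM1, the zinc finger repressor BLIMP1, stood at 0.345 and 0.647 CPM in the controls, against 0.4 and 0.994 CPM in KO 1 and KO 2. Their log2 fold changes were 0.12, 0.86 and 0.55, with 0 inside every interval.

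FOXH1 (ENSG00000160973.7, chromosome 8, 144473412 to 144476335, minus strand), a forkhead factor that brings SMAD2 and SMAD4 to Nodal target genes, was the detected marker with both KO levels above both controls. It stood at 50.2 and 41.7 CPM in the controls, against 52 and 90.1 CPM in KO 1 and KO 2, with means of 46 ± 6.01 and 71 ± 26.9 CPM (SD, n = 2 per group). KO 1 exceeded control 1 only slightly, and KO 2 was high. The log2 fold change was 0.63 ± 0.33 (interval -0.12 to 1.38, edgeR adjusted p = 0.997), with 0.18 without KO 2 and 0.98 without KO 1. Of its exon bases 31.6% overlap KIFC2 on the opposite strand, and the strand setting of the counting is not given, so reads of the pair may not be fully separated. FOXH1 is the factor whose binding pattern was matched in the MIXL1 and MESP2 windows.

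**Figure D4:**
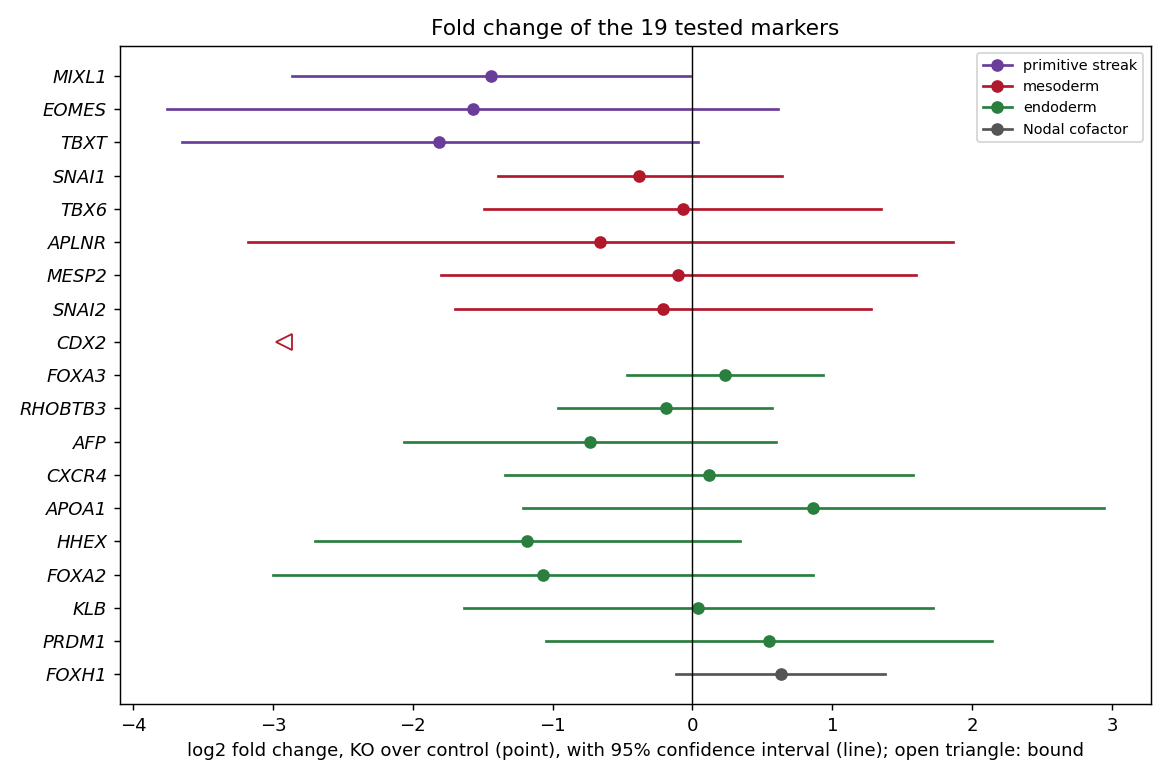
Log2 fold change of KO over control (horizontal axis) for the 19 tested markers, as points with 95% confidence intervals from edgeR, coloured by layer. CDX2 is drawn at its bound of -2.92 (open triangle), and the interval of MIXL1 ends just below 0 at -0.02.

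Mesoderm and endoderm differed in the direction of their values, as a description of these libraries. With CDX2 left out, since the filter fixed its direction, 8 of 8 tested streak and mesoderm genes had a log2 fold change below 0, against 4 of the 9 endoderm genes and 47.2% of all genes tested. Below -1 were 3 of these streak and mesoderm genes (TBXT, MIXL1 and EOMES) and 2 of the endoderm genes (HHEX and FOXA2), against 7.3% of all genes. None of the 19 was above 1, beside 1.88% of all genes. The median was -0.52 for the 8 streak and mesoderm genes (-0.66 with CDX2, also at its bound) and 0.04 for endoderm, beside 0.029 for all genes. The 3 streak genes alone had a median of -1.57 and the 5 mesoderm genes other than CDX2 one of -0.21.

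The order of the layers rested on single libraries. Over the same 8 genes, the median of streak and mesoderm was 0.12 without control 2 and 0.07 without KO 1, where that of endoderm was 0.06 and -0.29. Leaving out control 1 gave medians of -1.10 and -0.28, and leaving out KO 2 gave -1.0 and -0.15. Lower in both KO libraries were 3 of 9 streak and mesoderm genes (2 of 8 without CDX2) and 1 of 9 endoderm genes. CDX2, whose direction the filter fixed, is included in each streak and mesoderm count that follows and is no support there. Each of those counts takes every KO library kept against every control kept, which is easier to meet than with all libraries. Leaving out control 1 gave counts of 8 and 2 (31.2% of all genes), and leaving out KO 2 gave 8 and 3 (35.7%). Leaving out KO 1 gave 4 and 5 (37.7%), and leaving out control 2 gave 3 and 3 (27.4%).

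Genes of the signals that induce the streak were examined as a list. Of 42 genes of the Nodal, BMP, WNT and FGF pathways, 40 were tested and edgeR called 0. At an unadjusted p under 0.05 edgeR placed 6 (LEFTY1, ID1, ID3, ID4, FGF2 and FGF4), all with lower values in KO. Over all genes 3% had lower and 1.06% higher values at that threshold. WNT8A, 1 of the 40, passed the filter on low counts through the controls alone. Of the 40, 10 had both KO levels below both controls and 8 had both above, against 16.3% and 15.8% of all genes. WNT8A is among these 10, where its lower value was fixed by that filter and is no support. The median log2 fold change of the 40 was -0.29. The smallest p-values were those of ID1, ID4 and ID3, inhibitors of bHLH factors and direct targets of BMP signalling. ID1 stood at 92.8 and 177 CPM in the controls, against 29.9 and 52.8 CPM in KO 1 and KO 2 (log2 fold change -1.70 ± 0.40, edgeR adjusted p = 0.808, DESeq2 adjusted p = 0.039). ID4 stood at 19.1 and 47.7 CPM in the controls, against 6.66 and 11.1 CPM in KO 1 and KO 2 (log2 fold change -1.91 ± 0.49, edgeR adjusted p = 0.997, DESeq2 adjusted p = 0.0468). With the replicate number as a block, edgeR called ID1 (adjusted p = 0.000503) and ID4 (adjusted p = 0.00333). Both were also called without KO 1 (edgeR adjusted p = 0.0145 and 0.00591) and without KO 2 (2.09e-05 and 3.22e-05), and not without control 1 or control 2. ID3 stood at 165 and 355 CPM in the controls, against 128 and 105 CPM in KO 1 and KO 2 (log2 fold change -1.16, edgeR adjusted p = 0.997), and was called without KO 1 (edgeR adjusted p = 0.0204).

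The 3 genes of these pathways with the highest CPM, which is not corrected for length, were FGFR1, CTNNB1 and TDGF1, and none was called. For the receptor FGFR1 the log2 fold change was 0.27 (interval -0.29 to 0.83), for beta-catenin (CTNNB1) 0.01 (interval -0.66 to 0.69) and for the Nodal coreceptor TDGF1 -0.20 (interval -0.87 to 0.47). The sign of CTNNB1 turned with library size only and with upper-quartile factors, and that of TDGF1 without KO 2.

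Further lineage genes outside the 35 were tested too, with edgeR calling 0 of 7 tested mesoderm and 0 of 9 tested endoderm genes. At an unadjusted p under 0.05 in edgeR there were 2 of each (KDR and PDGFRA, GATA5 and LEFTY1), all with lower values in KO. Over all genes 3% had lower and 1.06% higher values at that threshold. Of the 7 mesoderm genes 5 were lower in both KO libraries, and of the 9 endoderm genes 2 were (GATA5 and LEFTY1), beside the 16.3% of all genes. The lower value of GATA5 was fixed by the filter on low counts and is no support in either count. KDR, the receptor VEGFR2, stood at 280 and 294 CPM in the controls, against 154 and 131 CPM in KO 1 and KO 2. PDGFRA, a receptor of early mesoderm, stood at 3.5 and 4.59 CPM in the controls, against 2.36 and 0.497 CPM in KO 1 and KO 2, a difference of -1.55 on the log2 scale that edgeR did not call (adjusted p = 0.997). PDGFRA was called without KO 1 (log2 fold change -3.00, edgeR adjusted p = 0.00402) and not without KO 2 (log2 fold change -0.77, edgeR adjusted p = 1). TCF15, a bHLH factor of paraxial mesoderm, had 6.6 and 6.3 CPM against 4.84 and 2.87 CPM. Of the endoderm genes, GATA5 had 15, 19, 3 and 0 reads, passing the filter through the controls alone, and the Nodal inhibitor LEFTY1 stood at 2.65 and 4 CPM in the controls, against 0.946 and 1.58 CPM in KO 1 and KO 2. FLRT3, a transmembrane protein, had 1.75, 2.11, 0.909 and 9.92 CPM in control 1, control 2, KO 1 and KO 2, so its high value was in KO 2 alone. Without KO 1 it was called as higher (log2 fold change 2.37, edgeR adjusted p = 0.000303), and without KO 2 its log2 fold change was -1.08.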

How the data were processed

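Polyadenylated RNA was sequenced in 4 libraries of H9 cells, 2 control and 2 KO, grouped by their titles. Per the labels' protocols, a stranded mRNA kit was used. The tools, per the submitters' processing notes, were HTSeq 0.11.0, STAR 2.6.0a, cutadapt 1.8.1 and FastQC 0.11.7, with the build GRCh38 (hg38). For the annotation release and strand setting, the sources used here give nothing. Each deposited file holds raw read counts, 1 whole number for each gene.

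Reads given to no single gene (14.4% to 20.3%) were left out. Symbols, positions and exon lengths came from GENCODE 29 on GRCh38 (93.8% of identifiers matched). edgeR 4.0.16 (R 4.3.3) was run with filterByExpr (minimum count 10), TMM factors and the robust quasi-likelihood F test without the legacy option, two-sided, with Benjamini-Hochberg adjustment over 19027 genes and a threshold of 0.05. SEs were derived from the F statistic. The biological coefficient of variation was 36.3%. Replicates were not copies (chi-square per degree of freedom 54.6 between controls, 124 between KO libraries). DESeq2 1.42.0, limma-voom (limma 3.58.1), other scalings, filters and left-out libraries were alternatives.

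The members and lists were chosen with earlier results of these data known. All 35 members are accounted for, and from the pathway list the 3 genes with the smallest p and the 3 with the highest mean CPM are named, from the further lineage lists the 3 with the smallest p.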

Additional observations from a re-analysis of the deposited data

How the results depend on the processing

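Over all genes, against 5 called, upper-quartile factors, library size only, limma-voom and a mean CPM of at least 1 gave 0 (801, 787, 692 and 523 genes at an unadjusted p under 0.05). The legacy edgeR fit gave 1, no filter 8 and DESeq2 60. Leaving out 1 library gave 3 to 1096. With the replicate number as a block 76 genes were called, and 0 of the 19 markers. Same-numbered libraries deviated together over genes (correlation 0.326), but with 2 pairs and no label on a shared culture this is no pairing by design. With library size only, the median of all genes shifted from 0.029 to -0.097.

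The number of detected markers was 12 of 35 and that of endoderm markers 4 of 14 under the rule of 1 CPM, and 17 to 19 and 8 to 9 with a library left out. The median log2 fold change of streak and mesoderm ranged from -1.09 to 0.17 with a library left out (-1.10 to 0.12 over the 8 members tested in each of these fits, CDX2 being left out, with 0.07 without KO 1). That of endoderm ranged from -1.17 to 0.06 (-0.29 to 0.06 over the same 9 members, with -0.28 without control 1) and was -0.59 with no filter. Other scalings and tests moved both medians by less than the spread between replicates. With a library left out, 3 to 8 streak and mesoderm genes, CDX2 included, were lower in every KO library kept than in every control kept. For endoderm the number was 2 to 5. With all libraries, the number lower in both KO libraries was 3 for endoderm with upper-quartile factors and with library size only (20% and 21.3% of all genes). The cause of these shifts was not tested.

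Of 238 marker values in alternatives, 2 were called (EOMES and APLNR) and 20 changed sign, in 10 of 19 markers, none of which was called in the main test. With 1 library left out, the log2 fold changes ranged from -1.06 to 0.87 for MESP2, -1.28 to 0.55 for TBX6, -3.31 to 1.46 for APLNR, -1.12 to 0.29 for SNAI2, -0.82 to 0.085 for SNAI1, -0.73 to 0.64 for CXCR4, -1.21 to 2.03 for APOA1, -0.30 to 1.05 for PRDM1, -1.18 to 0.78 for KLB and -0.40 to 0.058 for RHOBTB3. They ranged from -0.37 to 0.33 for CTNNB1, -0.56 to 0.095 for TDGF1 and -1.08 to 2.37 for FLRT3. With library size only the sign turned for CXCR4 (-0.027), KLB (-0.073) and CTNNB1 (-0.10), with upper-quartile factors for KLB (-0.037) and CTNNB1 (-0.068), and with limma-voom for KLB (-0.20) and CTNNB1 (-0.031). CTNNB1 also turned with a mean CPM of at least 1 (-0.021) and with the replicate block (-0.027).

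Most markers had under 100 reads per library, and intervals on the log2 scale then spanned 2 or more. The alternatives on the same members, CDX2 at its bound and the counts of genes lower in both KO libraries were chosen after seeing the data.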
